A study of Homo sapiens with 6 samples.

Results

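The 33 genes described here make, load or prepare the machinery that copies DNA, or sit in the E2F programme that switches this machinery on before S phase. They were chosen by name, with earlier results of these data known: every probe whose only gene symbol on the array platform is one of the 33 was taken, which gave 51 probes of the 47314 on the array. Of these genes, 18 had 1 probe, 12 had 2 and 3 had 3. After the filter on dim signal 44 probes were kept and 31 genes were measured, each by its brightest probe, among 16692 rows tested in all, of which 11917 carried a gene name. CCNE2 and E2F8 were not measured by that rule, and their signals are described with the other E2F genes.

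The arrays came from the ovarian cancer line SKOV-3, an established human line, in 2 groups of 3. In the siCtrl group cells were transfected with a scramble siRNA, and in the siHBO1 group with siRNA against HBO1, the histone acetyltransferase encoded by KAT7. Total RNA was taken 48 h after transfection in both groups. The sources used here do not give the siRNA sequences, all arrays come from 1 cell line, and nothing in the labels says that replicates were separate cultures, so the p-values measure a spread that may be technical.

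DNA synthesis runs as a relay. Primase and polymerase alpha start each strand, a clamp loader places the PCNA ring on the primer, and polymerases delta and epsilon extend it while RPA covers the single strand. FEN1 and DNA ligase I then join the lagging-strand pieces, and CAF-1 deposits histones on the new DNA. E2F factors, released from RB as cyclin E and CDK2 become active, transcribe most of these genes at the border of G1 and S phase. HBO1 is known for binding the origin recognition complex and for a part in loading the MCM helicase, which is the step before the relay starts.

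The measured members differed little between the groups. All 31 were detected on all 6 arrays (detection p under 0.05), so their transcripts could be followed in both groups. In siHBO1 against siCtrl, 13 members had a positive and 18 a negative log2 change, with a median of -0.048, a lowest of -0.39 (RPA3) and a highest of 0.41 (TK1). Over all 16692 rows the median was 0.0016 and 49.7% of changes were negative. None of the 31 members passed limma's test at an adjusted p under 0.05 (0 of 31, against 0% of all rows), and 0 of 31 had an unadjusted p under 0.05, against 3.82% of all rows. The adjusted p of each member was 0.999.

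Bounds on the size of a change come from the 95% intervals of the probes used. These rest on the spread between arrays, which may be technical, so they need not hold between separate cultures. They also cover 1 probe per gene, and other probes of a gene can differ. For 31 of 31 members the 95% interval of the change lay within 2-fold in either direction, and for 25 of 31 within 1.5-fold. Over all 16692 rows 92.6% of the intervals lay within 2-fold, and 7758 of the 16692 lay within 1.5-fold. The most distant bounds were 1.73-fold lower, for RPA3, and 1.79-fold higher, for TK1. The intervals reached a median of 0.35 log2 to either side of the change (1.28-fold) for the members and 0.45 (1.36-fold) for all rows. The median pooled SD between arrays of a group was 0.17 log2 for the members and 0.23 over all rows. In RNA from whole cultures, fewer cells in S phase and less transcript per cell cannot be told apart.

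**Figure D1:**
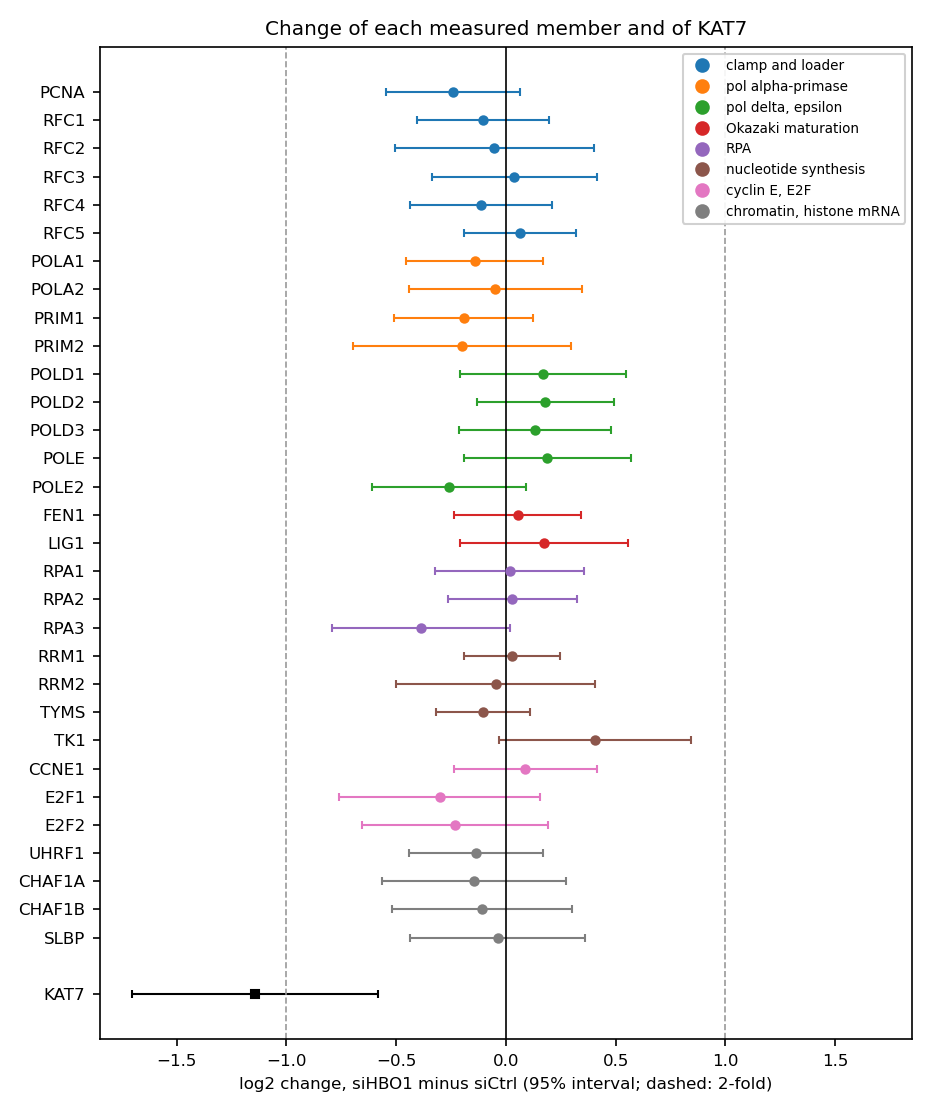
Log2 change, siHBO1 minus siCtrl, of the 31 measured members in order of their role, with KAT7 below. Points are the fitted changes over 3 arrays per group, bars the 95% intervals and dashed lines 2-fold; each member's interval lies inside the dashed lines and reaches or crosses 0, while that of KAT7, a probe detected on 1 of 3 siHBO1 arrays, does not reach 0.

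The targeted gene checks the labels. KAT7 read 5.93, 6.49 and 6.45 log2 in siCtrl 1 to 3, and 4.77, 5.22 and 5.45 on siHBO1 1 to 3, so all siHBO1 values lay below all siCtrl values. Its log2 change was -1.14 (SE 0.25), with an exact two-sided permutation p of 0.1, the smallest that 3 arrays against 3 allow, and a limma adjusted p of 0.999. The probe is dim, detected on 3 of 3 siCtrl but 1 of 3 siHBO1 arrays, so the size of the change is uncertain, and without background correction it was -0.37. Between 42.2% and 44.3% of probes were detected per array. Of the 7 markers of the cell line (ERBB2, KRT8, KRT18, KRT19, PAX8, MSLN and VIM) 7 were detected on all 6 arrays. The leukocyte markers PTPRC and CD3E and the endothelial markers PECAM1, CDH5 and VWF were detected on 0 arrays. CD14 and COL1A1 were detected on all 6, PDGFRB and DCN on at most 2, and LYZ on at most 1.

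The members were chosen by name as DNA synthesis and E2F target genes, without reading promoter sequence. A high share with an E2F word is therefore partly built into the list and is not a separate finding. RefSeq promoter windows (GRCh38.p14, 250 bases before to 50 after a transcription start) were found for 28 of the 33 genes, and not for POLD3, RPA2, RPA3, CCNE2 and E2F8. An E2F word was counted where any of TTTCGCGC, TTTGGCGC, TTTCCCGC or TTTGCCGC stood on either strand. It was found in 11 of the 28 genes (39.3%), against 647 of the 9567 tested genes with a window (6.76%). Counted by window, since a gene can have more than 1, it was 12 of 35 for the members (34.3%) and 3.31% of all 35116 windows. The 11 were PCNA, RFC3, POLA1, POLA2, POLE, POLE2, LIG1, TYMS, E2F1, E2F2 and UHRF1. The CCAAT box (CCAAT), often found in promoters of cell cycle genes, was in 14 of 28 and in 43.6% of the tested genes with a window, and the GC box (GGGCGG) in 21 of 28 (75.0%) and 75.9%. The cell cycle genes homology region (TTTGAA), a word of genes active in G2 and mitosis, was in 1 of 28, RRM1, and in 14.4%. On the opposite strand the GC box reads CCGCCC, which can share letters with TTTCCCGC or TTTGCCGC. A match is only a run of letters and not a shown binding site.

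The 120 bases before the start of 7 of the 11 genes are shown, at least 1 from each role that has a match, to let the words be seen in place. Capitals mark the E2F words on either strand, each stretch is read 5′ to 3′ on the strand of its gene, and all come from RefSeq, build GRCh38.p14.
PCNA, chr20:5126623-5126742, minus strand: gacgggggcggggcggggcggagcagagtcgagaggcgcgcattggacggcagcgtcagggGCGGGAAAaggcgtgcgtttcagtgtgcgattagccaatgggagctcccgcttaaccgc
POLA2, chr11:65261842-65261961, plus strand: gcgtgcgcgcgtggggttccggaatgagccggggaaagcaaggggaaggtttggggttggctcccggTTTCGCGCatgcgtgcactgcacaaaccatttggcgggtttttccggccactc
POLE, chr12:132687343-132687462, minus strand: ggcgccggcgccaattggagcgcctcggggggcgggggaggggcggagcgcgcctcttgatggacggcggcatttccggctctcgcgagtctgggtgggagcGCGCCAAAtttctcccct
LIG1, chr19:48170345-48170464, minus strand: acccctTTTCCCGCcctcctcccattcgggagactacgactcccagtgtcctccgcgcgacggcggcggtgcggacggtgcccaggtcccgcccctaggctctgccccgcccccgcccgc
TYMS, chr18:657533-657652, plus strand: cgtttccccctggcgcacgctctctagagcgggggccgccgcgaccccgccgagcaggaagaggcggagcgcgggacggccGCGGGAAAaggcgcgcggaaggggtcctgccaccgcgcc
E2F1, chr20:33686386-33686505, minus strand: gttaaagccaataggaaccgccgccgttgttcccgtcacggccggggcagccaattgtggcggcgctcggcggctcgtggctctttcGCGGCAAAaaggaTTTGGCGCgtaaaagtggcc
UHRF1, chr19:4909381-4909500, plus strand: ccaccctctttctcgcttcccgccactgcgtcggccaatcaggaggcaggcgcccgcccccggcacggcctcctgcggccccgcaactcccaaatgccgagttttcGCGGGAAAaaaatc

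E2F1 holds 2 words within its last 33 bases before the start, at -33 to -26 and at -20 to -13. In UHRF1 a word lies at -14 to -7, with another at -160 to -153 in its windows, and in PCNA at -59 to -52. In the map of motif positions, POLA1 and LIG1 are the only genes of the 11 with no word as close to the start as that of PCNA.

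**Figure D2:**
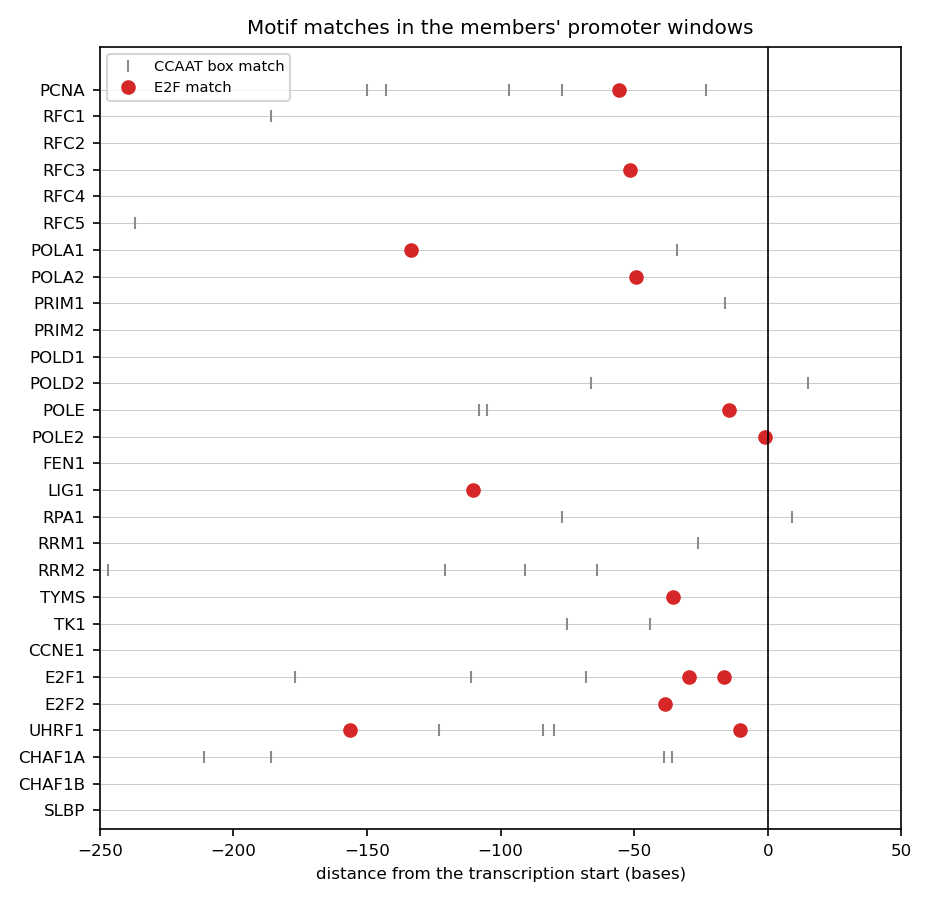
Matches of the E2F words (red points) and of the CCAAT box (grey ticks) by distance in bases from the transcription start, for the 28 members with a promoter window. Matches from all windows of a gene share its line; 11 lines hold a red point.

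The change between the groups was set out for genes with and without an E2F word. The 647 tested genes with the word had a median log2 change of 0.013, and the 8920 tested genes with a window and no word had one of 0.014. Of the 647, 0 passed the test and 17 (2.63%) had an unadjusted p under 0.05, against 3.44% of those without. With the word 4.64% of genes had all siHBO1 arrays above all siCtrl arrays and 5.26% had them below, and without it 6.11% and 3.95%. Among the members, the 11 with the word had a median of -0.14, 8 of them negative, and the 17 measured members with a window and no word one of -0.038, 9 of them negative. No member of either group passed the test, and none of these differences between genes with and without the word was tested.

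The clamp and its loader came out slightly negative, with 4 of 6 members below 0 and a median of -0.079. PCNA, the sliding clamp, read 11.92, 11.80 and 11.78 log2 on siCtrl 1 to 3 and 11.46, 11.84 and 11.47 on siHBO1 1 to 3. The means were 11.83 ± 0.077 and 11.59 ± 0.22 (SD, n = 3 each). Arrays siHBO1 1 and 3 lay below every siCtrl array, while siHBO1 2 lay among them. The log2 change was -0.24 (SE 0.13, limma adjusted p 0.999), or 1.18-fold lower. A dimmer PCNA probe gave 0.11 (SE 0.21), the opposite sign, and the mean of both probes gave -0.066. Without siHBO1 2 the change of the bright probe was -0.37.

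The loader subunits stayed close to 0. RFC1, the large subunit that is particular to the replicative loader, had a log2 change of -0.11, and a second probe gave -0.094. Of the small subunits, RFC2 was at -0.053, RFC3 at 0.038, RFC4 at -0.11 and RFC5 at 0.064. The other RFC4 probe was at -0.24, while the other RFC2 probe was at 0.10 and 1 of 2 other RFC3 probes at -0.025, so the sign of RFC2 and RFC3 depended on the probe. Across the arrays RFC2 had its highest value, 9.02, on siHBO1 2, the array on which PCNA, RFC1 and RFC4 were also highest in their group.

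Polymerase alpha-primase, which lays down the RNA-DNA primer, had negative changes in 4 of 4 subunits, with a median of -0.17. The catalytic subunit POLA1, singled out after its values were seen, was one of the few members without overlap. It read 9.60, 9.72 and 9.64 log2 on siCtrl 1 to 3 and 9.53, 9.48 and 9.52 on siHBO1 1 to 3. The groups were separate by a narrow margin, with a log2 change of -0.14 (SE 0.14), since its spread within groups was the smallest of all members (pooled SD 0.047). Its SE is larger than this spread alone would give, because limma draws the variance of each row towards that of rows of like intensity. The accessory subunit POLA2 was at -0.048, the primase catalytic subunit PRIM1 at -0.19 (another probe -0.11) and the large primase subunit PRIM2 at -0.20. PRIM2 read 6.19 on siHBO1 3 against 6.64 to 6.91 on the other 5 arrays, and its change was -0.0061 without that array. Without siHBO1 3 POLA2 turned to 0.086, while POLA1 was at -0.14 and PRIM1 at -0.20.

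Polymerases delta and epsilon went the other way in 4 of 5 members, with a median of 0.17. The catalytic subunit of polymerase delta, POLD1, had a log2 change of 0.17, and that of polymerase epsilon, POLE, one of 0.19. POLD2, an accessory subunit of polymerase delta, read 10.02, 10.27 and 10.08 on siCtrl 1 to 3 and 10.22, 10.34 and 10.35 on siHBO1 1 to 3. Its siHBO1 values overlapped with siCtrl 2 only, and the change was 0.18 (SE 0.14), with 0.17 from a second probe. POLD3, another accessory subunit of polymerase delta, was singled out after its values were seen: it read 8.37, 8.49 and 8.57 on siCtrl 1 to 3 and 8.59, 8.60 and 8.64 on siHBO1 1 to 3. These groups came close to each other without overlap, and the change was 0.13 (SE 0.15). POLE2, the second subunit of polymerase epsilon, opposed its catalytic partner at -0.26 (SE 0.16). The signs within this group therefore split between 2 subunits of the same enzyme, and none of the 5 passed the test.

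POLA1 and POLD3 were the only measured members whose groups did not overlap, 1 lower and 1 higher of 31. Over all rows, 4.58% had all siHBO1 arrays below all siCtrl arrays and 5.48% had them above, so a count of 1 in each direction is near the background.

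**Figure D3:**
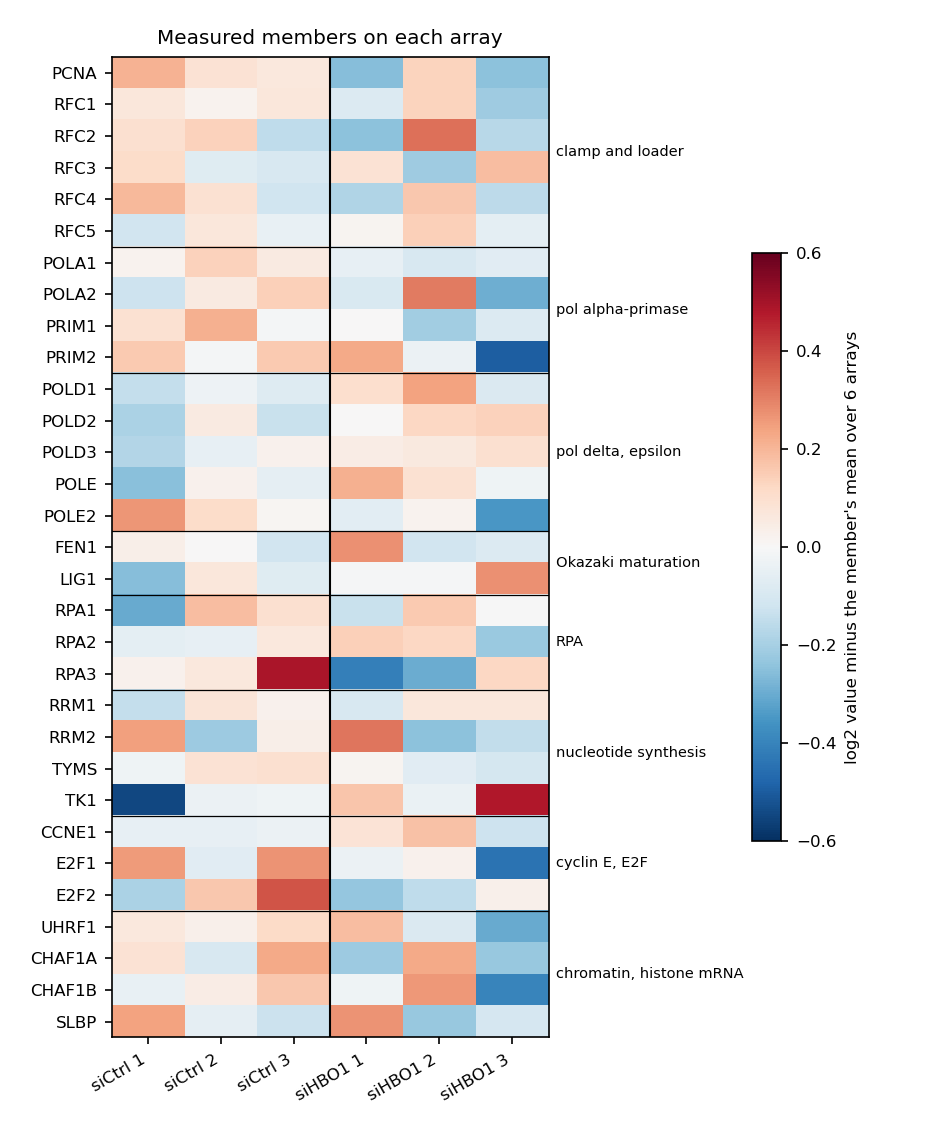
Log2 value of each measured member (rows, grouped by role) on each of the 6 arrays (columns), minus the member's mean over the 6; red is above and blue below that mean. TK1 on siCtrl 1 and PRIM2 on siHBO1 3 are the darkest blue cells, and RPA3 on siCtrl 3 and TK1 on siHBO1 3 the darkest red.

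The enzymes that finish the lagging strand were both slightly positive. FEN1, the flap endonuclease, was at 0.053 (another probe 0.17), and LIG1, the ligase that seals the nick, at 0.17. FEN1 was highest on siHBO1 1, at 12.48 against 12.09 to 12.24 on the other arrays. LIG1 was highest on siHBO1 3, at 9.17 against 8.64 to 8.97. Each positive change thus leaned on a different array, and FEN1 turned to -0.071 without siHBO1 1 while LIG1 came to 0.081 without siHBO1 3.

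RPA, the single-strand binding trimer, held the lowest change of all members. RPA3, its smallest subunit, read 11.71, 11.75 and 12.18 log2 on siCtrl 1 to 3 and 11.28, 11.39 and 11.81 on siHBO1 1 to 3. The means were 11.88 ± 0.26 and 11.49 ± 0.28 (SD, n = 3 each). The third array was the high one in each group, and siHBO1 3 lay above siCtrl 1 and 2. The log2 change was -0.39 (SE 0.18, limma adjusted p 0.999), or 1.31-fold lower, rank 771 of 16692 rows by p. Without siCtrl 3 it was -0.24, and without siHBO1 3 it was -0.55.

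The other RPA subunits did not share that value. RPA2, the middle subunit, was at 0.030. RPA1, the large DNA-binding subunit, was at 0.016 by its brightest probe, but 2 further probes gave 0.24 (SE 0.14) and 0.27 (SE 0.15). On those 2 probes, which share their RNA samples and were singled out after their values were seen, every siHBO1 array lay above each siCtrl array. Among the 44 kept probes of the members this held for 3, and 1 had every siHBO1 array below. Over all rows tested, with 1 probe per named gene, the shares were 5.48% above and 4.58% below. The RPA1 probe with the change of 0.27 read 10.03, 10.30 and 10.34 on siCtrl 1 to 3 and 10.47, 10.35 and 10.66 on siHBO1 1 to 3. The brightest RPA1 probe overlapped throughout, at 11.65 to 12.14 on the siCtrl and 11.82 to 12.11 on the siHBO1 arrays, so the value of RPA1 depended on the probe.

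Nucleotide synthesis held the highest change. TK1, the thymidine kinase of the salvage pathway and a classical S phase enzyme, read 10.31, 10.82 and 10.83 log2 on siCtrl 1 to 3 and 11.02, 10.82 and 11.34 on siHBO1 1 to 3. The means were 10.65 ± 0.30 and 11.06 ± 0.26 (SD, n = 3 each). siHBO1 1 and 3 lay above every siCtrl array, and siHBO1 2 was level with siCtrl 2 and 3. The log2 change was 0.41 (SE 0.19, limma adjusted p 0.999), or 1.32-fold higher. It rested in part on the low value of siCtrl 1, without which it was 0.23, and it was 0.27 without siHBO1 3. TK1 varied most of all members within groups, with a pooled SD of 0.28.

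The other nucleotide enzymes were near 0. RRM2, the S phase subunit of ribonucleotide reductase, read 9.96, 9.50 and 9.75 on siCtrl 1 to 3 and 10.04, 9.47 and 9.57 on siHBO1 1 to 3. Its groups covered the same range, with a log2 change of -0.046 (SE 0.20). RRM1, the large subunit, was at 0.027, and TYMS, which makes thymidylate, at -0.10 (SE 0.094), with the narrowest interval of all members (-0.32 to 0.11). The salvage enzyme TK1 and the synthesis enzyme TYMS, which feed the same thymidylate pool, thus had changes of opposite sign, and neither passed the test.

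Among cyclin E and the E2F factors, the measured E2F genes were negative and CCNE1 positive. E2F1, an activator of the S phase programme, read 7.15, 6.83 and 7.17 log2 on siCtrl 1 to 3 and 6.86, 6.92 and 6.46 on siHBO1 1 to 3. siHBO1 3 was the lowest array, and the others overlapped with siCtrl 2. The log2 change was -0.30 (SE 0.20, limma adjusted p 0.999), and it was -0.15 without background correction. Without siHBO1 3 it was -0.16, and without siCtrl 2 it was -0.41. E2F2, a second activator, was at -0.23 (SE 0.19), with values of 9.06 to 9.63 on the siCtrl and 9.02 to 9.28 on the siHBO1 arrays. Its change was -0.10 without siCtrl 3 and -0.39 without siCtrl 1. CCNE1, the cyclin E1 gene, read 9.84, 9.84 and 9.86 on siCtrl 1 to 3 and 9.98, 10.07 and 9.77 on siHBO1 1 to 3, with a change of 0.089 (SE 0.14). Its siCtrl arrays were nearly equal and its siHBO1 arrays fell on either side of them.

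The unmeasured genes of this role were dim. CCNE2, cyclin E2, was not well above background on any array (0 of 6), and no fold is given for it. E2F8, an atypical E2F that represses E2F targets, was detected on 2 of 3 siCtrl and 0 of 3 siHBO1 arrays. Its log2 signal was 5.08, 5.65 and 5.60 on siCtrl 1 to 3 and 4.86, 5.18 and 5.05 on siHBO1 1 to 3. The siCtrl array below background, siCtrl 1, lay under siHBO1 2, so the groups overlapped and no fold is given. Neither gene passed the filter on dim signal. In a fit without that filter the limma adjusted p was 0.999 for both.

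The genes of chromatin assembly, DNA methylation and histone mRNA were negative in 4 of 4 members, with a median of -0.12. UHRF1, which reads hemimethylated DNA and brings the maintenance methyltransferase to it, read 12.01, 11.98 and 12.06 on siCtrl 1 to 3 and 12.13, 11.86 and 11.65 on siHBO1 1 to 3. Its siHBO1 values lay above, just below and well below the siCtrl values, and the change was -0.14 (SE 0.13). Another probe, dim at 5.41 to 5.72 log2 over the arrays, gave 0.069. The change of the probe used was -0.020 without siHBO1 3 and -0.26 without siHBO1 1. The CAF-1 subunits CHAF1A and CHAF1B were at -0.15 and -0.11, and SLBP, which binds the stem-loop of histone mRNA, at -0.038 (another probe -0.23). CHAF1B read 10.17 on siHBO1 3 against 10.52 to 10.83 elsewhere, and without that array its change was 0.063. Without siHBO1 3 SLBP was at 0.0026 and CHAF1A at -0.068.

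Of the 11 members with more than 1 kept probe, 13 further probes were measured, and 9 of these had the sign of the probe used. The other 4 belonged to PCNA, RFC2, RFC3 and UHRF1. The 7 probes that did not pass the filter were those of CCNE2 and E2F8 and 1 each of PCNA, RFC5, POLA1, POLD3 and CCNE1.

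Single arrays stood out for many members. siHBO1 3 held the lowest of the 6 values for 11 of 31 members (35.5%, against 20.4% of all rows), and siCtrl 1 for 9 (29.0% against 20.3%). siHBO1 2 held the highest value for 8 members (25.8% against 18.2%) and siCtrl 2 the lowest for 0 (against 9.18%). Set against the average of its own group, the members' mean lay at -0.036, 0.011 and 0.025 log2 in siCtrl 1 to 3. It lay at 0.022, 0.053 and -0.075 in siHBO1 1 to 3. Without siHBO1 3 the median change of the members was 0.0026, and 14 of 31 were negative.

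Some roles departed further. The chromatin and histone mRNA genes lay at 0.11, 0.097 and -0.20 log2 in siHBO1 1 to 3, and polymerase alpha-primase at 0.095, 0.065 and -0.16. The clamp and loader lay at -0.075, 0.15 and -0.075. In siCtrl 1 to 3 the chromatin and histone mRNA genes lay at 0.0325, -0.0728 and 0.0404, and polymerase alpha-primase at -0.0377, 0.0255 and 0.0122. The clamp and loader lay there at 0.0601, 0.0215 and -0.0815, and RPA, the widest role in siCtrl, at -0.17, 0.0090 and 0.16. A list of 12 measured NF-kB and cytokine genes was taken up because earlier results had shown it to vary. These lay at 0.73, 0.23 and -0.96 over siHBO1 1 to 3, and at 0.98, -0.53 and -0.45 over siCtrl 1 to 3. The part of this array difference in the members' values was not tested.

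**Figure D4:**
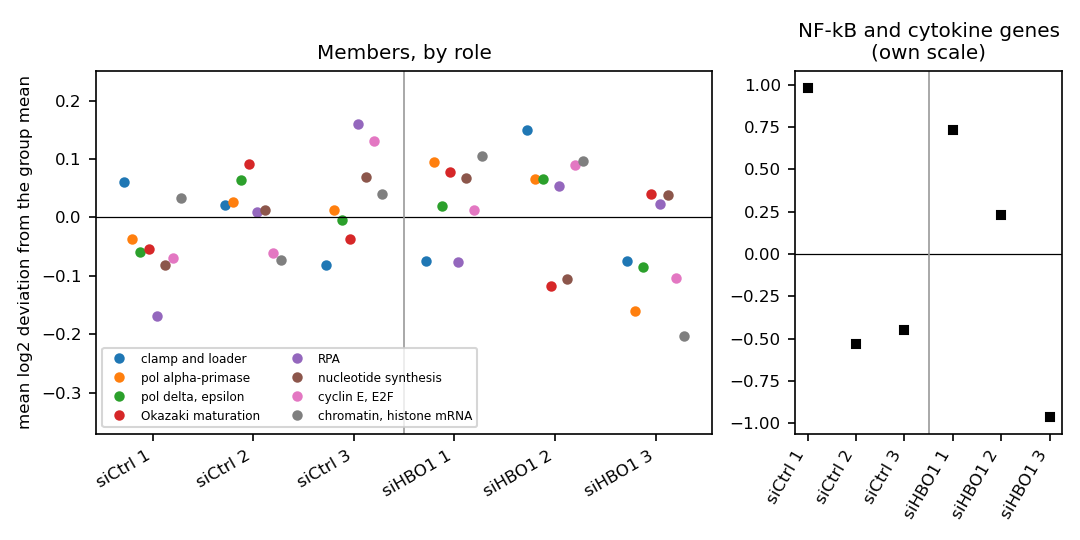
Mean log2 deviation of each role's members from their group's mean on each array (left), and the same for 12 NF-kB and cytokine genes on a scale of its own (right). The lowest role mean is -0.20, for the chromatin and histone mRNA genes on siHBO1 3, while the cytokine genes reach 0.98 on siCtrl 1 and -0.96 on siHBO1 3.

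Other genes of the same pathway, from a list outside the 33, likewise held none that passed the test. Of 37 genes 34 were measured, 17 with a positive and 17 with a negative change (median -0.011), and 0 passed limma's test in either direction or had an unadjusted p under 0.05. The smallest p among the negative changes belonged to DCK, the deoxycytidine kinase of the salvage pathway, at -0.33 (SE 0.17), and RRM2B, the p53-induced small subunit of ribonucleotide reductase, at -0.46 (SE 0.26). Among the positive ones they belonged to PCLAF, a PCNA-binding factor, at 0.13 (SE 0.073), and E2F5, a repressor E2F, at 0.27 (SE 0.16). The siHBO1 arrays were all above the siCtrl arrays for 1 gene, PCLAF, and below for 2, WDHD1 and DNA2, the latter pair singled out after their values were seen. Against 5.48% and 4.58% of all rows, counts of 1 and 2 of 34 are near the background. The salvage kinases DCK and TK1 had changes of opposite sign.

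**Figure D5:**
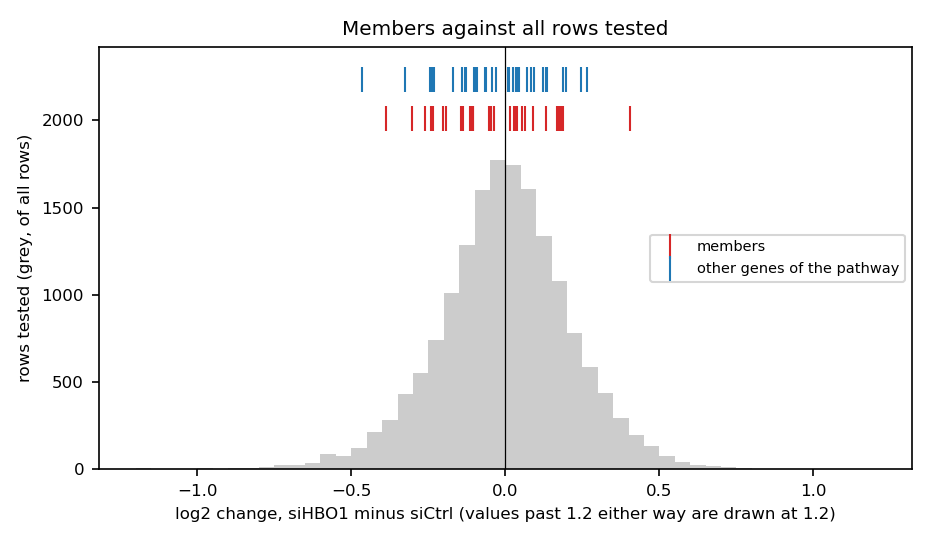
Histogram of the log2 change, siHBO1 minus siCtrl, over all 16692 rows tested (grey bars), with the 31 measured members (red ticks) and the 34 other genes of the pathway (blue ticks) above it. The ticks of both lists spread over the middle of the histogram, from -0.39 to 0.41 and from -0.46 to 0.27.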

How the data were processed

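Total RNA of 6 samples was labelled with biotin and hybridised to Illumina bead arrays. The deposited intensity of each probe is its mean bead signal on a linear scale with a detection p-value, per the file headers. The deposited table of processed log2 values has 1 distribution in all columns (median 5.99), and its scale is judged from its values. The submitters' processing notes name GenomeStudio and lumi, with no steps or versions.

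Intensities went through neqc in limma 3.58.1 (R 4.3.3): normexp from the detection p-values, offset 16, quantile normalization, log2. Probes with detection p under 0.05 on at least 3 of 6 arrays were kept (20744), and the probe with the highest mean stood for a gene. siHBO1 was compared with siCtrl by lmFit and eBayes with intensity trend, two-sided, without covariates, Benjamini-Hochberg adjusted over 16692 rows. The fit was also run on simulated data with noise drawn independently for each row and array. Such data lack the deviations that many rows share on an array here, so that run does not cover them. Names came from the platform annotation, which gives 1 symbol for 30110 probes, several for 8 and none here for 17196. Where the gene identifier of a probe with 1 symbol matched a RefSeq gene, the RefSeq symbol was used. This changed 0 symbols among the members' probes. Kept probes without a single symbol stayed rows of their own.

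Members and lists were chosen with earlier results of these data known. Values on each array are given for PCNA, RRM2, CCNE1, E2F1, UHRF1, TK1 and the 2 smallest p per direction (RPA3 and PCNA, TK1 and POLD2), with exceptions named. The number of arrays limits the precision.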

Additional observations from a re-analysis of the deposited data

How the results depend on the processing

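No member was called in any of the 12 other settings or with any array left out, and the members' 95% intervals lay within 2-fold in at least 30 of 31. Of these settings 6 cannot alter a member's change, and under the other 6 it had the reported sign in 177 of 186 cases. Median scaling, which put the median of all rows at -0.047, turned RFC3 (-0.039), RPA1 (-0.045), RPA2 (-0.026) and RRM1 (-0.024), moved the members' median to -0.12, and left 0 members above and 4 below without overlap, against 3.34% and 6.07% of all rows. Array weights turned RPA1 (-0.12), RRM1 (-0.044), RRM2 (0.14) and SLBP (0.094), and called 4 genes, none a member. They gave 1261 rows (7.55%) and 1 of 31 members (RPA3) an unadjusted p under 0.05. Averaging probes turned RFC2 (0.024) and left 3 members below without overlap, against 4.74% of all rows. Without a filter 1455 of 37247 rows (3.91%) and 2 members (RPA3 and TK1) had an unadjusted p under 0.05. Under median scaling 577 rows (3.46%) and 1 of 31 members (RPA3) had.

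The replicate numbers common to both groups were tried as a block. No label ties same-numbered arrays together, so they were not treated as pairs, and their deviations had correlations of 0.57, 0.022 and 0.48. Between arrays of unlike number they ran from -0.57 (siCtrl 1 with siHBO1 3) to 0.31 (siCtrl 2 with siHBO1 3). With the replicate block 4 genes were called, none a member. An unadjusted p under 0.05 was found for 1187 rows (7.11%) and 2 of 31 members (RPA3 and TK1), which is near the background.

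With an array left out, the rows at an unadjusted p under 0.05 ranged from 297 (1.78%, without siCtrl 3) to 1499 (8.98%, without siHBO1 2). With all arrays there were 638 (3.82%). The members among them ranged from 0 to 2 of 31 (PCNA and TK1, without siHBO1 2). RPA3 was the only member among them without siCtrl 1 (3.03% of all rows) and without siHBO1 3 (5.01%). The members' median ranged from -0.098 to 0.0026 and the change of KAT7 from -1.32 to -0.96. For 27 of 31 members leaving out some array moved the change by over 1.5 times or turned it. Members that changed sign in some of these were RFC2 (-0.23 to 0.056), RFC3 (-0.045 to 0.16), POLA2 (-0.22 to 0.086), FEN1 (-0.071 to 0.12), RPA1 (-0.13 to 0.11), RPA2 (-0.033 to 0.15), RRM1 (-0.037 to 0.081), RRM2 (-0.22 to 0.066), CHAF1B (-0.27 to 0.063) and SLBP (-0.18 to 0.073). Detection on all 6 arrays removed KAT7. In each of these settings the cause of a moved value was not tested.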
